A study of Homo sapiens with 6 samples.

Results

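Apelin (APLN) and 3 G protein-coupled receptors for peptide hormones were followed across 6 Affymetrix arrays. The receptors were CALCRL, NTSR1 and GRPR. The 4 genes were taken by symbol from the 14884 gene symbols named on the array and were read by 5 of its 53617 probe sets, since GRPR had 2 and the others 1 each. They were chosen with earlier results of these data known. APLN and CALCRL had been among the genes that read higher after transfection in all 3 lines, and NTSR1 and GRPR among the highest in 1 line. Their differences between transfections are therefore given as a description, with no test.

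OVCAR-3, SKOV-3 and ES-2, which are cell lines from human ovarian cancers, gave 2 arrays each. In every line 1 array followed transfection with the control, miR-blank, and the other transfection with miR-135a-3p, the microRNA cut from the 3′ side of the MIR135A1 hairpin. Each line is a single established culture, while its dose, its harvest time and whether a synthetic RNA was used are not given in the sources used here. Values are normalised log2 signals, on which 1 unit is a 2-fold change of signal, and a transfection difference is the signal after miR-135a-3p less that after miR-blank. With 1 array per line and transfection, the lines are the replicates (n = 3), and a difference within a line has no replicate check.

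Apelin is a secreted peptide, cut from a precursor, that acts on the receptor APLNR in blood vessels and the heart. CALCRL is a class B receptor that binds calcitonin gene-related peptide or adrenomedullin, depending on which of the single-pass RAMP proteins accompanies it. NTSR1 is the high-affinity receptor of neurotensin and GRPR that of gastrin-releasing peptide, a mammalian relative of the amphibian peptide bombesin. NTSR1 and GRPR signal mainly through Gq to phospholipase C and calcium, and each has been studied in carcinomas as a growth-promoting receptor. CALCRL signals mainly through Gs to cyclic AMP.

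The transfected arm and its relatives are printed to show what the arrays of the second group had received. The sequences are RefSeq mature microRNAs of build GRCh38.p14, 5′ to 3′, with the seed, bases 2 to 8, in capitals.
hsa-miR-135a-3p: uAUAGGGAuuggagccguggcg
hsa-miR-135a-5p: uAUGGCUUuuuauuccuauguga
hsa-miR-135a-2-3p: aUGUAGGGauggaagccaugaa
The 3p arm of MIR135A1 lies at chr3:52294232-52294253 on the minus strand, and its seed differs from those of the 5p arm and of the 3p arm of MIR135A2. The MIR135A1 hairpin gene read between 1.75 and 2.26 after miR-blank and between 11.58 and 12.57 after miR-135a-3p, in each line as its transfection label says. A hairpin probe set does not separate the 3p from the 5p arm, and it bears on the transfection labels, not on those of the cell lines. limma called 1 of 8620 tested genes between the transfections, MIR135A1, which is 0.0116% of those tested. Without SKOV-3 the count was 4.

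The RefSeq promoters of the 4 genes are printed to show how unlike they are in base composition. Each runs from 250 bases before to 50 bases after the annotated start (GRCh38.p14, 5′ to 3′ on the strand of the gene), with every CG dinucleotide in capitals.
APLN, chrX:129654907-129655206, minus strand: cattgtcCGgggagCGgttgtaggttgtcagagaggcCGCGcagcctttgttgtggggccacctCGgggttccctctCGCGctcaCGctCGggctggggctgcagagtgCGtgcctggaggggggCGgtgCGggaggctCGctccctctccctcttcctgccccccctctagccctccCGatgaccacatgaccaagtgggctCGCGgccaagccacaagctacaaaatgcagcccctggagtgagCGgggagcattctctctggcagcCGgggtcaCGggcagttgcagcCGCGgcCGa
CALCRL, chr2:187448203-187448502, minus strand: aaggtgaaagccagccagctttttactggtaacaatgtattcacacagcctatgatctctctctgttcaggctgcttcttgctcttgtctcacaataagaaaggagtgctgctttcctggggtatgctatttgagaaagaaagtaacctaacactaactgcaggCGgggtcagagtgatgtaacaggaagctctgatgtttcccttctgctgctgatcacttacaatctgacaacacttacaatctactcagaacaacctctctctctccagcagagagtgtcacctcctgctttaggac
NTSR1, chr20:62708586-62708885, plus strand: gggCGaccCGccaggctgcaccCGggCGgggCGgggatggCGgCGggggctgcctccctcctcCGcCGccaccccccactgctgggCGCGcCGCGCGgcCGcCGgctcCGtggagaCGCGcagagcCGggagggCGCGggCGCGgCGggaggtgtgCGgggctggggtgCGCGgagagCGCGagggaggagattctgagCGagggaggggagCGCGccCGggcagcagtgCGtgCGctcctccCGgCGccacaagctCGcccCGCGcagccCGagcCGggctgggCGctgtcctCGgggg
GRPR, chrX:16123315-16123614, plus strand: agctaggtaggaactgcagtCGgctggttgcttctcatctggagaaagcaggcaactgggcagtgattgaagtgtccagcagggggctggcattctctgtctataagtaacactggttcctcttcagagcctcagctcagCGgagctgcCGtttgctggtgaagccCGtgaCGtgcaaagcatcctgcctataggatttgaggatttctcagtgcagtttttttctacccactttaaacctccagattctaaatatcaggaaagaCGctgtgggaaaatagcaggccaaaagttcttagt
All 4 genes had an entry among the 27305 promoters of this length. The NTSR1 promoter held 45 CG dinucleotides and was 81.7% G and C, and 96.61% of all promoters held fewer CG. APLN held 22, against a median of 14 over all promoters. GRPR held 6 and CALCRL 1, with 34.41% and 4.16% of promoters holding fewer. NTSR1 and GRPR, which stood together in SKOV-3, thus lay on opposite sides of that median. The GC box core GGGCGG was found on either strand 2 times in NTSR1, 1 time in APLN and 0 times in the other two, and 44.59% of all promoters held it. The GRPR promoter held 1 match each, on either strand and overlapping each other, to the hypoxia response core ACGTG and the cyclic AMP half-site TGACG, which 21.61% and 25.01% of promoters held. The other 3 members held 0 of both. No member held the AP-1 site TGANTCA, the TATA box core TATAAA or the E-box CACGTG, searched on both strands and present in 7.76%, 11.95% and 7.43% of promoters. A match is a stretch of letters and was not tested as a binding site.

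The 6 arrays were alike in scale, with medians between 4.16 and 4.23. Without detection calls in the table, a signal below the median of its own array is called dim here. It was not shown to be above background. Signals correlated at 0.979 to 0.987 within a line and at 0.942 to 0.953 between lines. The difference between transfections spread more widely in SKOV-3, with an SD of 0.48 over 8620 genes, than in ES-2 or OVCAR-3, with 0.30 each. Of 8 measured ovarian carcinoma markers, KRT18 read between 9.36 and 10.47 on all arrays. PAX8 was bright in SKOV-3 only (8.12 and 8.80), and EPCAM lay between 3.78 and 4.32 on all 6, near the array medians. On the OVCAR-3 arrays, with miR-blank first, PAX8 read 4.33 and 4.12 and KRT7 3.82 and 4.85. WT1 read 5.59 and 5.95 there, and MSLN 5.23 and 5.41. The remaining markers, KRT8 and VIM, read at least 5.08 on these arrays. The line names, on which all contrasts between lines rest, were taken from the sample labels. Whether the cells were the lines named was not tested.

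APLN read moderately bright in ES-2 and lower in the other lines, and it was higher after miR-135a-3p in each line by nearly the same amount. With miR-blank first and miR-135a-3p next, it read 6.90 and 7.27 in ES-2. In OVCAR-3 it read 5.11 and 5.48, and in SKOV-3 5.20 and 5.74. None of the 6 values was dim. In such bulk RNA, fewer cells with a transcript and less of it per cell cannot be told apart. The transfection groups overlapped, because the lines lay further apart than the transfections. The difference was 0.54 in SKOV-3 and 0.37 in both ES-2 and OVCAR-3, with a mean of 0.43 ± 0.10 (SD, n = 3), or 1.34-fold. In each line alone it was an ordinary size, at the 94.43, 94.92 and 90.17 percentile of tested genes. Ranked by the smallest of the 3 differences, APLN was number 12 of 8620 genes, and it had been chosen from the genes higher in all 3.

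The receptor of apelin, APLNR, was dim on all 6 arrays, between 3.09 and 3.55. Of the 3 genes listed for the apelin system, 2 were measured here. The mean of APLNR lay below 5, so it was not tested.

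CALCRL was a gene of 1 line. In OVCAR-3 it read 8.47 with the control and 9.27 with miR-135a-3p, above 92.86% and 96.03% of the probe sets on those arrays. In ES-2 it read 3.10 and 3.46, and in SKOV-3 2.94 and 3.55. These 4 values were dim, at the 27.55 to 38.75 percentile of their arrays. The transfection difference was 0.80 in OVCAR-3, 0.61 in SKOV-3 and 0.36 in ES-2, with a mean of 0.59 ± 0.22 (SD, n = 3). The OVCAR-3 difference, 1.74-fold, was the 46th highest of 8620 genes and the single one of the 3 in which both arrays were above the median. In the other lines a difference between dim values was not shown to reflect a transcript.

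The partners of CALCRL read at low to moderate signal in every line, and without detection calls their presence was not shown. RAMP1, which with CALCRL forms the CGRP receptor, read between 5.08 and 5.78 and had differences of 0.19 in SKOV-3, 0.27 in ES-2 and 0.17 in OVCAR-3. RAMP2, which with CALCRL forms an adrenomedullin receptor, had 0.65 in SKOV-3, −0.33 in ES-2 and −0.38 in OVCAR-3. RAMP3 read between 4.72 and 5.20. Adrenomedullin, ADM, read between 5.60 and 7.30, lowest in ES-2, with differences of 0.47 in SKOV-3, −0.33 in ES-2 and 0.30 in OVCAR-3. The genes of CGRP itself were near or below the array medians, CALCA between 3.78 and 4.44 and CALCB at most 3.85, and the calcitonin receptor CALCR was dim on all 6 arrays. Of the 13 genes listed for this system, 12 were measured. limma called 0 of the 4 tested besides CALCRL (ADM, RAMP1, RAMP2 and CRCP) between the transfections.

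**Figure D1:**
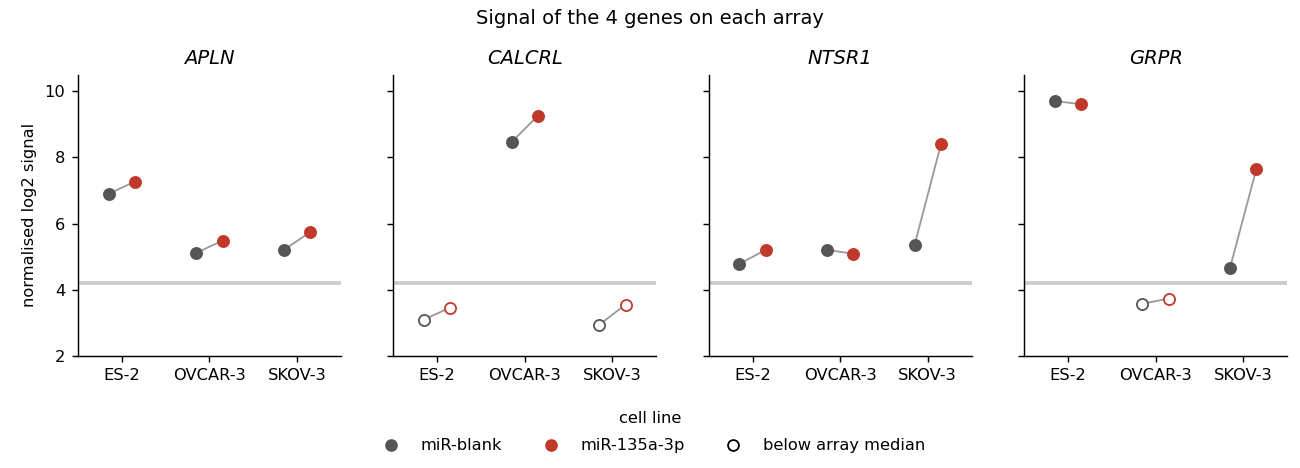
Normalised log2 signal (y axis) of APLN, CALCRL, NTSR1 and GRPR on each of the 6 arrays, by cell line (x axis); grey points are miR-blank, red points miR-135a-3p, a line joins the arrays of a cell line, open points lie below the array median and the grey band spans the array medians. APLN and CALCRL read higher after miR-135a-3p in every line, while NTSR1 and GRPR stand apart in SKOV-3, at 8.40 and 7.65 against 5.36 and 4.66.

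NTSR1 read near 5 on 5 of the arrays and stood far above them on the other. In ES-2 it read 4.78 with the control and 5.20 with miR-135a-3p, in OVCAR-3 5.20 and 5.09, and in SKOV-3 5.36 and 8.40. Over the miR-blank arrays the mean was 5.12 ± 0.30 (SD, n = 3). None of the values was dim, but those near 5 lay at the 60.16 to 68.71 percentile of their arrays, and the SKOV-3 array after miR-135a-3p at 92.70. The difference was 3.03 in SKOV-3, 8.19-fold, against 0.42 in ES-2 and −0.11 in OVCAR-3. In SKOV-3 it was the second highest of 8620 tested genes, after MIR135A1. The mean over the lines, 1.11 ± 1.69 (SD, n = 3), therefore rested on SKOV-3, and without that line it was 0.15.

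The ligand of NTSR1, neurotensin (NTS), was dim on all arrays, between 1.95 and 3.88. Within that range, with miR-blank first, SKOV-3 had 1.95 and 2.90, OVCAR-3 had 2.74 and 3.88, and ES-2 had 2.10 and 1.98. The related receptor NTSR2 read between 3.73 and 4.29. No other measured gene of the neurotensin list had a mean signal of at least 5.

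GRPR had a different level in each line. It was brightest in ES-2, at 9.71 with the control and 9.61 with miR-135a-3p. It was dim in OVCAR-3, at 3.57 and 3.73, and in SKOV-3 it read 4.66 and 7.65. The transfection difference was 2.99 in SKOV-3, 7.94-fold and the fifth highest of 8620 genes there, against −0.10 in ES-2 and 0.16 in OVCAR-3. The SKOV-3 signal after miR-135a-3p remained 1.96 below the ES-2 signal after the same transfection. The mean over the lines was 1.02 ± 1.71 (SD, n = 3), and without SKOV-3 it was 0.03.

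A second probe set annotated to GRPR gave another measurement of the same symbol. It read 5.49 and 4.99 in ES-2, 3.63 and 3.36 in OVCAR-3 and 4.30 and 7.64 in SKOV-3, again with miR-blank first. In SKOV-3 it was higher after miR-135a-3p too, with a difference of 3.34. After miR-blank its ES-2 signal exceeded its OVCAR-3 signal by 1.86, where the difference within the first probe set was 6.14. After miR-135a-3p its ES-2 signal was below its SKOV-3 signal (−2.65), while within the first it was above (1.96). The order of the lines after miR-135a-3p thus differed between the probe sets. In the order of probe set numbers, all 20 nearest probe sets with a RefSeq strand belonged to genes on the strand of GRPR for the first probe set, and all 20 to genes on the opposite strand for the second. What the second probe set binds is not given in the sources used here. With that strand unsettled, its values are uncertain as a measure of GRPR.

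The ligands of GRPR were measured beside it. GRP, the precursor of gastrin-releasing peptide, read between 6.27 and 6.54 on all arrays, with a difference of −0.08 in SKOV-3, 0.02 in ES-2 and 0.20 in OVCAR-3. The related ligand NMB read 5.76 and 5.62 in ES-2 and between 4.23 and 4.70 in the other lines. Receptors of the same family, NMBR and BRS3, were dim on all 6 arrays.

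**Figure D2:**
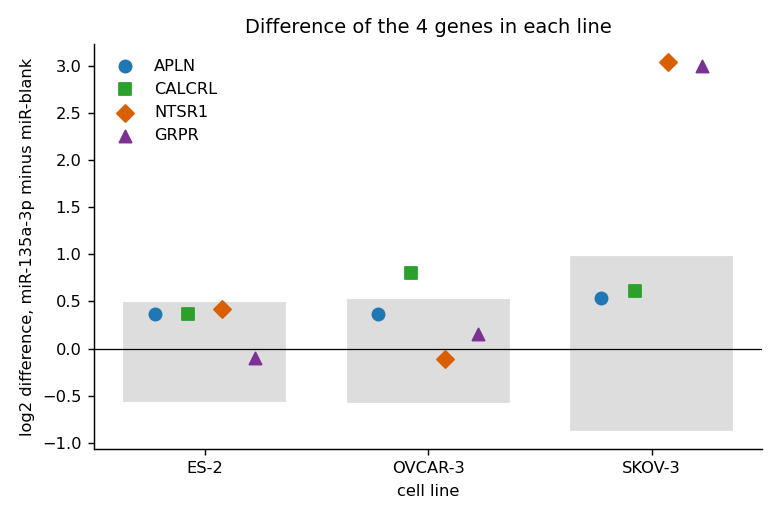
Log2 difference, miR-135a-3p minus miR-blank (y axis), of the 4 genes in each cell line (x axis); grey boxes span the central 95% of the 8620 tested genes in that line. NTSR1 and GRPR lie at 3.03 and 2.99 in SKOV-3, above a box that ends at 0.97, and CALCRL at 0.80 lies above the OVCAR-3 box, which ends at 0.51.

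Of the 4 genes, 2 were higher after miR-135a-3p in all 3 lines, where 9.54% of tested genes were, and 2 were at least 2-fold higher in SKOV-3, where 2.34% were. The genes were chosen on these values, so nothing is read from the counts. Over the 4 peptide systems, 25 genes were listed, 22 measured and 9 tested at a mean signal of at least 5. Leaving out the 4 members, 5 were tested, of which 1 (RAMP1) was higher in all 3 lines, 0 were lower in all 3 (13.4% of tested genes were), and 0 passed limma. Their median mean difference was 0.05, against −0.01 over all tested genes.

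**Figure D3:**
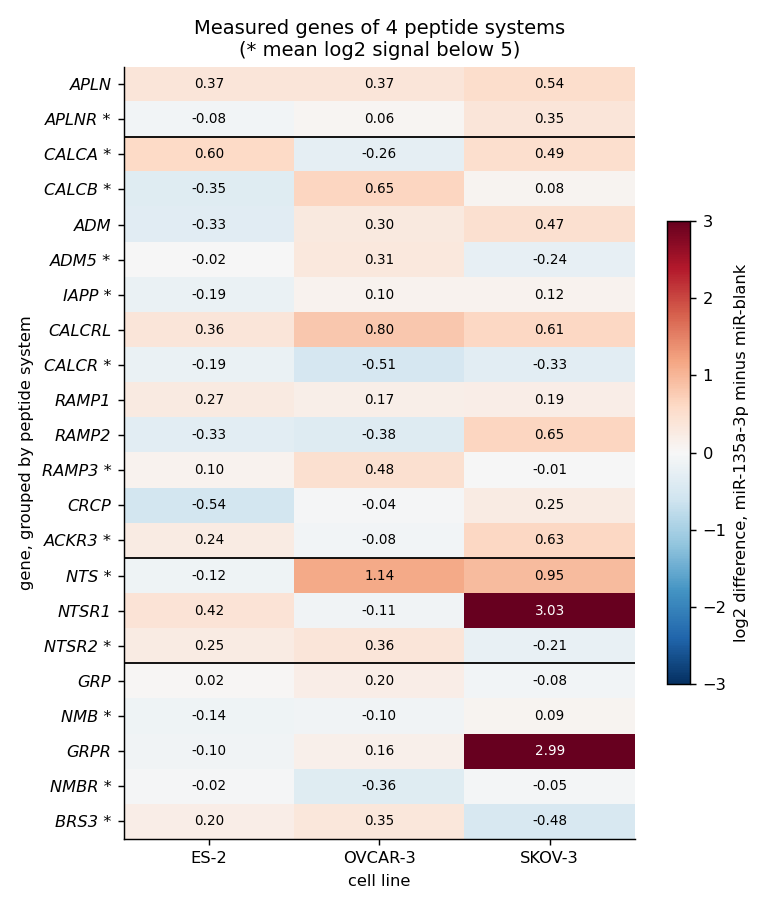
Log2 difference, miR-135a-3p minus miR-blank, for the 22 measured genes of the apelin, CGRP and adrenomedullin, neurotensin and bombesin systems (rows) in each cell line (columns), with the value printed in each cell; an asterisk marks a mean log2 signal below 5. NTSR1 and GRPR in SKOV-3 hold the highest values, and NTS follows in OVCAR-3 with 1.14 at dim signal.

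Other peptide receptors and ligands were measured for comparison. Of all tested genes, 9.54% were higher and 13.4% lower in all 3 lines, which is the background for the counts below. Of 55 further receptors, 50 were measured and 14 tested, with 1 higher and 1 lower in all 3 lines and 0 called by limma. Their median difference in SKOV-3 was −0.04, against 0.02 over all tested genes. The galanin receptor GALR2 was the 1 tested receptor of this list past 2-fold there (1.24, from 4.96 to 6.20), and it had −0.84 in OVCAR-3. Among 8 tested ligands of 32 measured, neuromedin U (NMU) was 1.06 higher in SKOV-3 and endothelin 1 (EDN1) had −1.30. Of 7 tested peptidases that degrade peptides, ANPEP was 1.46 higher in SKOV-3 and had 0.20 in OVCAR-3 and −0.09 in ES-2. Of 7 tested genes of precursor processing, 3 were higher and 1, QPCTL, lower in all 3 lines. The convertase PCSK6 was among the 3 (0.18 in SKOV-3, 0.28 in OVCAR-3 and 0.29 in ES-2). The others, FURIN and CPD, were higher in OVCAR-3 by only 0.01 and 0.07. Of the 7 measured G protein and effector genes, all tested, 1 was higher and 1 lower in all 3 lines, and of 7 tested receptor kinases and RGS genes likewise 1 and 1. The adenylyl cyclase ADCY1 had −1.02 in SKOV-3. limma called 0 genes of these lists between the transfections.

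Markers of other cell types were read beside these results, because APLN and CALCRL are also genes of endothelium and NTSR1 and GRPR of neuroendocrine cells. Of 12 endothelial markers, 8 were measured. Their summed linear signal ran from 234 to 541 after miR-blank and from 213 to 548 after miR-135a-3p, and EMCN was dim on all 6 arrays. In ES-2, where APLN was highest, 1 of the 8 stood out, the receptor kinase TIE1 (8.38 and 8.27, against 4.41 to 4.69 elsewhere). ESAM was brightest in OVCAR-3 (6.75 and 7.10), ERG was lowest in ES-2 (4.64 and 4.79), and PECAM1 was dim there (3.89 and 3.92). Of 10 neuroendocrine markers, 7 were measured, with sums of 150 to 172 and 159 to 185. In SKOV-3 the secretogranins SCG2 and SCG3 had differences of 0.98 and 0.78, with SCG2 dim on 5 of 6 arrays and SCG3 on all 6. The tested markers SYP and INSM1 had 0.07 and 0.22 there, and CHGB, dim on all arrays, −0.23. CHGA had 0.39 in SKOV-3 (4.25 and 4.65), and NCAM1, dim on 5 of 6 arrays, had 0.08. Of 8 leukocyte markers, 4 were measured, with sums of 255 to 1413 and 219 to 1256. In SKOV-3 CD68 was 2.24 higher and TYROBP 0.70 higher (5.17 and 5.87), while CD14 and LYZ were dim on all 6 arrays. The part of other cells in the results was not tested.

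Cell lines were compared with limma over all 6 arrays, with the transfection as a block, a threshold of adjusted p under 0.05 and at least 2-fold. The 2 arrays of a line differed in transfection too, with no label on whether their cultures were separate. APLN and CALCRL were not chosen on this contrast. NTSR1 and GRPR were chosen on the SKOV-3 array after miR-135a-3p, which enters the SKOV-3 mean. It also widens their spread in the joint fit for every pair of lines, so all their contrasts are given as values with no test. CALCRL and GRPR reached a mean signal of 5 through the lines in which they were bright. The tests of CALCRL are therefore taken from the fit of all 14884 genes with no filter. Of all tested genes limma called 16.5% for the ES-2 and OVCAR-3 pair, 12.1% for ES-2 against SKOV-3, and 14.6% when OVCAR-3 was set against SKOV-3. The last count, 1255 genes, was 817 and 808 without the miR-blank or the miR-135a-3p array of OVCAR-3. Without the filter the shares called were 11.8%, 9.49% and 10.2% in the same order.

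APLN was highest in ES-2. The ES-2 mean of 7.09 exceeded the OVCAR-3 mean of 5.30 by 1.79 (SE 0.16, 3.45-fold, limma adjusted p 0.000481) and the SKOV-3 mean of 5.47 by 1.61 (SE 0.16, 3.06-fold, limma adjusted p 0.00133). OVCAR-3 and SKOV-3, neighbours in that order, differed by −0.17 (SE 0.16, limma adjusted p 0.479), which is about the size of its error. The gap between ES-2 and OVCAR-3 was 1.79 on the miR-blank arrays and 1.79 on the miR-135a-3p arrays.

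CALCRL was higher in OVCAR-3, with a mean of 8.87, than in ES-2 (3.28) or SKOV-3 (3.24). The differences were −5.59 for ES-2 minus OVCAR-3 (SE 0.18, limma adjusted p 2.52e-05) and 5.62 for OVCAR-3 minus SKOV-3 (SE 0.18, limma adjusted p 3.82e-05). ES-2 and SKOV-3 differed by 0.03 (SE 0.18, limma adjusted p 0.943), both dim. The sizes of the larger differences are uncertain because 1 side of each is dim.

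In the first probe set GRPR had its highest mean in ES-2 (9.66) and its lowest in OVCAR-3 (3.65). ES-2 minus OVCAR-3 was 6.01, and the OVCAR-3 values were dim, which leaves the size uncertain. It was 6.14 on the miR-blank arrays and 5.88 after miR-135a-3p. Within the second probe set, uncertain as a measure of GRPR, it was 1.86 and 1.63. Within the first probe set SKOV-3 lay between these lines, and its distance to each differed between the transfections. ES-2 minus SKOV-3 was 5.05 on the control arrays and 1.96 on those of miR-135a-3p, and OVCAR-3 minus SKOV-3 was −1.09 and −3.92.

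NTSR1 had a mean of 5.14 in OVCAR-3 and 4.99 in ES-2. ES-2 minus OVCAR-3 was −0.15, with −0.42 on the miR-blank arrays and 0.11 on those of miR-135a-3p. Against SKOV-3 the differences after miR-blank were −0.58 for ES-2 and −0.16 for OVCAR-3, and after miR-135a-3p −3.19 and −3.31.

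Without variance moderation, in the filtered fit, limma called none of the APLN and CALCRL differences. The limma adjusted p was 0.0656 and 0.0923 for APLN and 0.0644 and 0.0852 for CALCRL.

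The genes beside the members on their chromosomes were read in the same way. For each member, the 3 nearest measured protein-coding genes on each side in the RefSeq order were read. The 6 neighbours of NTSR1 differed by −0.49 to 0.27 in SKOV-3, and the 6 of GRPR by −0.26 to 0.51. The neighbours of CALCRL differed by −0.49 to 0.31 in OVCAR-3, below its own 0.80. In SKOV-3 they ran from −1.25 to 0.95 and in ES-2 up to 0.39, beyond its own 0.61 and 0.36. APLN and GRPR are both on the X chromosome, at the distant positions printed above, and differed by 0.54 and 2.99 in SKOV-3. The neighbours of APLN had −0.36 to 0.63 in SKOV-3 and reached 0.75 in OVCAR-3, beyond its own 0.54 and 0.37, and 0.17 in ES-2.

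**Figure D4:**
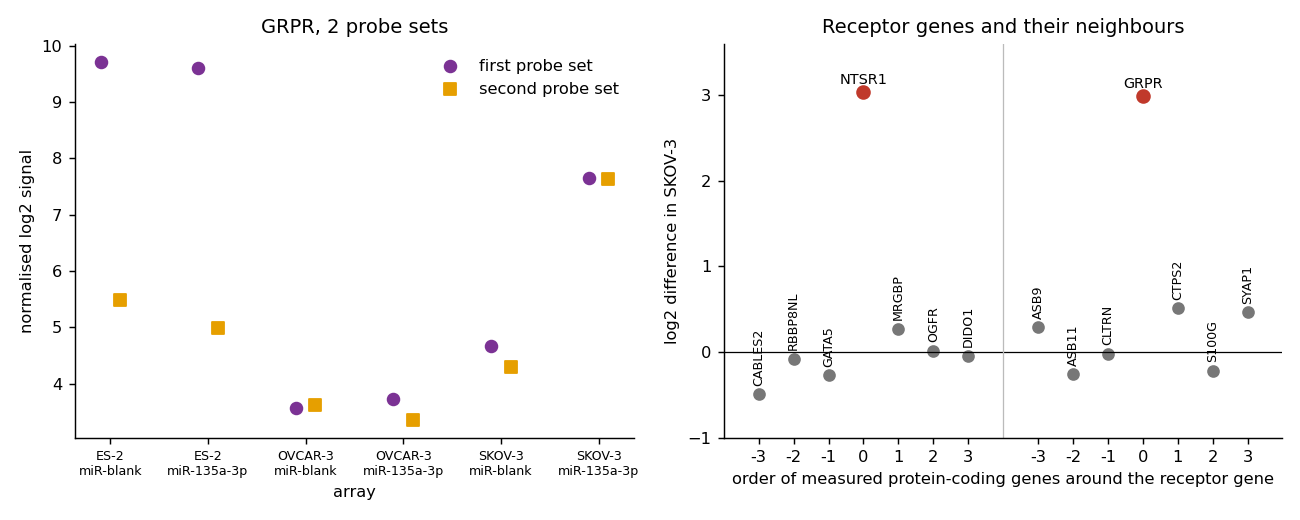
Left, normalised log2 signal (y axis) of the 2 GRPR probe sets on each array (x axis); right, log2 difference in SKOV-3, miR-135a-3p minus miR-blank (y axis), of NTSR1 and GRPR (red) and of the 3 nearest measured protein-coding genes on each side (grey, x axis in gene order). Both probe sets read higher in SKOV-3 after miR-135a-3p, by 2.99 and 3.34, while the first is brightest in ES-2 and the second in SKOV-3 after miR-135a-3p. No plotted neighbour exceeds 0.51, but ASB9, ASB11, CLTRN and S100G beside GRPR had means below 5 and were not tested.

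For each member the 5 tested genes most like it were found by Pearson r over the 6 arrays, among 3354 genes with a range of at least 1 unit. The points share cell lines, so these values describe likeness and carry no p. For APLN they were ENC1 (0.997), AMOTL1 (0.989), TBX3 (0.989), RASGRF1 (0.987) and DENND2A (0.986). ENC1 read 7.27 and 8.07 in ES-2, 3.79 and 4.42 in OVCAR-3 and 4.17 and 5.32 in SKOV-3. For CALCRL they were PRTFDC1 (0.998), MYOT (0.997), KPTN (0.996), MDM1 (0.996) and NPL (0.996). MYOT, a muscle Z-disc protein, read 9.60 and 10.90 in OVCAR-3 and at most 3.08 elsewhere.

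For GRPR the most like genes were CD274 (0.998), MYEOV (0.996), KIAA1549L (0.995), PLPP3 (0.992) and NABP1 (0.992). CD274, which encodes the immune checkpoint ligand PD-L1, read 8.22 and 7.82 in ES-2, 3.65 and 3.74 in OVCAR-3 and 4.61 and 6.77 in SKOV-3. Like GRPR it was thus high in ES-2, dim in OVCAR-3 and higher after miR-135a-3p in SKOV-3. For NTSR1 they were MSLN (0.986), ACTL8 (0.984), P3H4 (0.980), LRP12 (0.978) and TP53I13 (0.966). ACTL8, an actin-like protein, read 4.74 and 7.74 in SKOV-3 and between 4.65 and 4.83 elsewhere. Between the members r was read with no search among genes, so the values are not set against those above. NTSR1 and GRPR correlated at 0.12 over the 6 arrays, because GRPR was high in ES-2 and NTSR1 was not, while NTSR1 and the second GRPR probe set correlated at 0.81. APLN and GRPR correlated at 0.92, as both were highest in ES-2.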

How the data were processed

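Total RNA was extracted on columns and labelled as whole-transcript cDNA, per the labels' protocols. The deposited values are log2 signals. Per the submitters' processing notes the tools were Transcriptome Analysis Console 3.0, Affymetrix Expression Console 1.4 and RMA, with no role stated. RMA makes array distributions equal, so a shift of most genes would be removed. The genome build of the probe annotation is not given in the sources used here. Of 53617 probe sets, 16098 had 1 symbol through the platform annotation, matched by Entrez identifier to RefSeq (GRCh38.p14), and the rest were unnamed. The probe set with the highest mean stood for a gene, and 8620 genes with a mean of at least 5 were tested with limma 3.58.1 in R 4.3.3 (two-sided, Benjamini-Hochberg over all tested genes), after tests on simulated data. Transfections were compared with the cell line as a block, since both arrays of a line come from that line (correlation of deviations 0.592 to 0.722). The p-values measure the spread between these arrays, whose number limits the precision. Members and gene lists were chosen with earlier results of these data known. Named genes were the members, their peptide systems, from each other list the tested genes at least 2-fold different in a line, up to 4 line calls and some of the 4 largest mean differences, marker genes, and the 5 most like genes. Alternatives were other normalizations, filters, probe set summaries, variance settings and blocks, and leaving out arrays or lines.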

Additional observations from a re-analysis of the deposited data

Results flagged for a closer look

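Keratin 7 (KRT7), 1 of the ovarian carcinoma markers, went past 2-fold upward in 1 line and past 2-fold downward in another. It was 1.03 higher after miR-135a-3p in OVCAR-3, from 3.82 to 4.85, and had −1.53 in SKOV-3, from 6.40 to 4.87. With 1 array per line and transfection, the difference between the lines was not tested.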

How the results depend on the processing

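Of 272 recomputed values, 240 were labelled the same. Differences were so labelled when they kept their direction and their side of the threshold or moved by less than the spread. Counts of called genes were so labelled when they stayed within a set ratio of the main count. The label thus allows large moves. Without SKOV-3 the transfection difference went from 1.11 to 0.15 for NTSR1 and from 1.02 to 0.03 for GRPR, both labelled the same. The cause of the changes was not tested. Between the transfections limma called 1 gene, also with no replicate block, 0 without variance moderation, and 1 to 4 with a line left out. Between lines, in the order ES-2 minus OVCAR-3, ES-2 minus SKOV-3 and OVCAR-3 minus SKOV-3, it called 0, 4 and 0 genes without moderation, and 2515, 1979 and 2210 with no minimum fold. With each array left out it called 1044 to 1440, 937 to 1281 and 808 to 1409. Without moderation the limma adjusted p was 0.0656 for APLN at 1.79 and 0.0923 at 1.61, 0.0644 for CALCRL at −5.59 and 0.0852 at 5.62, and 0.161 for GRPR at 6.01. The contrasts of GRPR and NTSR1 rest on a fit that holds the array on which these genes were chosen, so their values are no test. Without moderation GRPR stayed at 6.01, 3.50 and −2.50, in the order of pairs above, and left the threshold. With both GRPR probe sets averaged, ES-2 minus OVCAR-3 was 3.88. ES-2 minus SKOV-3 was then 1.39 and OVCAR-3 minus SKOV-3 −2.49, neither past the threshold. The latter was −2.50 with no filter and without the transfection as a block, past the threshold in neither, and −3.99 to −1.02 with each array left out. CALCRL between ES-2 and SKOV-3, near 0 and not called, turned to −0.0050 with equal medians and −0.0121 with quantile normalization, and ranged from −0.14 to 0.21 with each array left out. NTSR1 ranged likewise from −1.07 to 0.77 for ES-2 minus OVCAR-3, turning to 0.37 and 0.77 without the ES-2 miR-135a-3p or the OVCAR-3 miR-blank array, from −3.33 to −0.45 for ES-2 minus SKOV-3 and from −3.18 to −0.29 for OVCAR-3 minus SKOV-3. The lowest values of the last pair came without the SKOV-3 miR-blank array, where SKOV-3 was only the array NTSR1 was chosen on and was assumed to vary like the other lines. Signals near the array median limit what can be read: 6 of 24 member values were dim, and 8 lay below 5.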

Other observations

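Several listed genes divided the lines as the members did, and limma called each of those given here in at least 1 line contrast of the filtered fit. They were named by the size of those differences, so the calls describe them and lend no further support. The peptidase neprilysin (MME) read 9.56 and 9.85 in ES-2 and was dim, between 3.47 and 3.97, in the other lines, through ES-2 alone reaching a mean of 5. RGS16, which limits Gq and Gi signalling, read 10.51 and 10.55 in OVCAR-3 and between 5.07 and 5.55 elsewhere (limma adjusted p 3.08e-05 for OVCAR-3 minus SKOV-3). RGS4 was bright in ES-2 only (7.48 and 8.11) and dim in the other lines, and likewise passed the filter through ES-2. The kisspeptin receptor KISS1R was brightest in OVCAR-3, at 7.95 and 7.09. Endothelin 1 (EDN1) read 10.03 and 10.03 in ES-2, 3.37 and 3.99 in OVCAR-3 and 8.34 and 7.04 in SKOV-3.

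Further listed genes, markers of the lines among them, were also called between lines. ES-2 exceeded SKOV-3 by 1.64 for PAM, which amidates peptide hormones, and by 1.04 for the thrombin receptor F2R, and ADM had −1.30. ES-2 exceeded OVCAR-3 by 5.59 for ANPEP, 2.10 for RGS10 and 1.13 for ADCY1, and ADCY9 had −1.23. OVCAR-3 minus SKOV-3 was −1.23 for ECE1, −1.45 for ADCY7 and −1.88 for GRK5, and ES-2 minus SKOV-3 was −1.23 for ADCY6. ES-2 minus OVCAR-3 was 5.48 for vimentin (VIM), 2.22 for KRT7 and 2.79 for CD68, while OVCAR-3 minus SKOV-3 was −4.24 for PAX8. PAX8 passed the filter through SKOV-3 alone. Between the transfections in SKOV-3, WT1 read 6.14 and 7.15 and MSLN 5.62 and 7.02, with miR-blank first, and neither passed limma.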
